A study of Mus musculus with 5 samples.

Results

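The alpha-like and beta-like globin genes encode the protein chains of haemoglobin, the oxygen carrier of red blood cells. The 7 genes described here were taken by name and not by their values. Hba-x is the embryonic alpha-like gene, and Hba-a1 and Hba-a2 are the adult alpha genes. Hbb-y and Hbb-bh1 are the embryonic beta-like genes, and Hbb-bs and Hbb-bt are the adult beta genes. They are 7 of the 32285 genes in the deposited tables. Their UMI counts (a UMI is a molecular tag that stands for 1 captured RNA molecule) were summed over all 84440 barcodes with no quality filter. A barcode stands for 1 droplet, which usually holds 1 cell. In 9913 barcodes the 7 globins made up at least 50% of the UMIs, in 72795 they made up under 5%, and 1732 lay between.

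The study set out to learn how gene expression in the developing penis, in which the penis bone (baculum) forms, differs from that of developing limbs. Single cells of mice, labelled C57BL/6N by the submitters and given as C57BL/6J in the study's methods, were profiled with a 10X Single Cell 3' kit, which counts RNA molecules near their 3' ends. There were 3 libraries from penises of male mice at postnatal day 6, dissected with the prepuce removed, and the methods give 3 mice of more than 1 litter, which the labels do not tie to libraries. There was 1 library from forelimbs and 1 from hindlimbs of male embryos at embryonic day 15, and the methods name 1 set of male embryos for both limbs without saying how they were pooled into libraries. The labels name no transgene and no treatment. The forelimb and hindlimb libraries were compared with the penis libraries as 1 limb group, so tissue and age changed together and cannot be told apart. The p-values measure the spread between these libraries, which may be technical.

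Mice make red cells in successive waves. Primitive red cells arise in the yolk sac, enter the circulation with their nuclei and carry embryonic globins, and during their maturation Hbb-bh1 gives way to Hbb-y. Definitive red cells arise in the fetal liver and later in bone marrow, carry the adult globins, and lose their nuclei before they mature. The alpha-like genes stand in 1 cluster and the beta-like genes in another, with the embryonic genes first in each, and they respond to shared erythroid factors of the GATA and KLF families.

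In the mouse build GRCm38 (mm10) with GENCODE M21 gene models, the alpha-like genes lie on the plus strand of chromosome 11. Hba-x (ENSMUSG00000055609) spans chr11:32276400-32278116, Hba-a1 (ENSMUSG00000069919) spans chr11:32283511-32284465 and Hba-a2 (ENSMUSG00000069917) spans chr11:32296489-32297298. The beta-like genes lie on the minus strand of chromosome 7. Hbb-y (ENSMUSG00000052187) spans chr7:103851749-103853216, Hbb-bh1 (ENSMUSG00000052217) spans chr7:103841637-103843164, Hbb-bs (ENSMUSG00000052305) spans chr7:103826534-103828096 and Hbb-bt (ENSMUSG00000073940) spans chr7:103812524-103813996. All 7 symbols of the tables matched the annotation under the same gene ID.

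The 120 bases before the RefSeq transcript start are shown for the 6 members found in the RefSeq promoter table (GRCm38.p6), because the embryonic and adult genes below were told apart in the data and these windows show how their proximal promoters differ in letters. The RefSeq starts differ from the outer ends of the GENCODE spans above, so the windows of Hba-x, Hba-a1 and Hbb-bs lie wholly inside those spans and the others overlap them in part. Each is read 5′ to 3′ on the strand of its gene. Capitals mark matches, on either strand, to CACCC (the letters KLF factors bind), CCAAT (the box bound by NF-Y), TATAA (the TATA box), its variant CATAA and GATAA (the letters GATA factors bind).
Hba-x, chr11:32276480-32276599: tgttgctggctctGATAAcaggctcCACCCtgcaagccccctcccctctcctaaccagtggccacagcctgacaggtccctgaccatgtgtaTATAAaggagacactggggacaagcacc
Hba-a1, chr11:32283552-32283671: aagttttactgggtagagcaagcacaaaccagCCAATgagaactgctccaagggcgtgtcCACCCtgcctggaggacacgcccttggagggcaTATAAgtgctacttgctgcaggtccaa
Hba-a2, chr11:32296372-32296491: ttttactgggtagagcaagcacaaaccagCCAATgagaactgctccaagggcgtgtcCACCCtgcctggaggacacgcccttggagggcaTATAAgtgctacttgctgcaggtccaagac
Hbb-y, chr7:103853208-103853327: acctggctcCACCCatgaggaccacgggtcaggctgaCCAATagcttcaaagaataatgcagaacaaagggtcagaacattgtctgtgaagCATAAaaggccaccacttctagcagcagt
Hbb-bs, chr7:103827929-103828048: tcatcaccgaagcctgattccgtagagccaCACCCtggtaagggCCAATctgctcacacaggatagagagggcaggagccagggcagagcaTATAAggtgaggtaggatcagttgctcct
Hbb-bt, chr7:103813924-103814043: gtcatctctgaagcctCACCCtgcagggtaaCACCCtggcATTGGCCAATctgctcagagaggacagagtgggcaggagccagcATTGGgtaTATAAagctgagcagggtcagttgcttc

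A CACCC match stood in all 6 windows, against 31.7% of all 32851 promoter windows of the same length. CCAAT was matched in 5 of 6 windows, all but that of Hba-x, against 21.3% of all promoters. TATAA was matched in 5 of 6, all but that of Hbb-y, against 11.8%. The Hbb-y window held CATAA 29 bases before the start, where the other windows held TATAA 27 to 30 bases before it, and CATAA was found in 12.7% of all promoters. GATAA was matched only in the Hba-x window, against 10.5%. The Hba-a1 and Hba-a2 windows were identical over 117 of 117 bases once shifted by 3 bases, whereas Hbb-bs and Hbb-bt agreed at 88 of 119 aligned bases (73.9%) and Hba-x and Hbb-y at 46 of 120 (38.3%). A match describes the letters only.

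The members also differ in how well 3' reads can tell them apart. The coding sequences of Hba-a1 and Hba-a2, 429 bases each, differ at 1 base, and the whole 74 bases after the stop codon of Hba-a1 recur in Hba-a2, so a 3' read may fall to either gene or be left uncounted. Hbb-bs and Hbb-bt, 444 coding bases each, also differ at 1 base, but the longest run they share after the stop codon is 8 bases. Hbb-y and Hbb-bh1 differ at 105 coding bases (76.4% identity) and Hba-x differs from Hba-a1 at 163 (62.0%). Values are therefore given for each gene, and the split between Hba-a1 and Hba-a2 is uncertain.

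The libraries held 8411 to 28266 barcodes and 70554067 to 162335993 UMIs. Globins took 4.68%, 3.91% and 3.71% of all UMIs in penis libraries 1 to 3, 5.84% for the forelimb and 6.32% for the hindlimb. Any pair of libraries shared at most 203 barcode sequences, and at most 3 of those with at least 50% globin UMIs in both. In the barcodes under 5% globin, markers of the labelled tissues were present: the 6 keratinocyte markers summed to 1754 to 1910 CPM (the counts-per-million scale), here of non-globin UMIs, in the penis and 155 to 159 in the limb libraries, and the 6 muscle markers to 5.9 to 6.84 and 425 to 536.

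Globin RNA sat in few barcodes. The barcodes with at least 50% globin UMIs numbered 883, 785 and 665 in the penis libraries (8.47%, 6.89% and 7.91% of barcodes), and reached 4011 for the forelimb (14.2%) and 3569 for the hindlimb (13.8%). Such barcodes held 87.7% to 91.6% of each library's globin UMIs. At least 3 of the 9 red blood markers measured, which include Alas2, the first enzyme of heme synthesis in red cells, and the anion exchanger Slc4a1, were detected in 69.3% to 71.3% of them in the penis and in 51.1% and 55.1% of those from the forelimb and hindlimb. Of the barcodes under 5% globin, 0.140% to 0.690% reached that number, and all 9 markers were above 0 in the high-globin barcodes of each library. These high-globin barcodes held few other genes, with a median of 197 to 247 genes detected. The study's limits, with its reads per cell taken here as genes detected, would keep 9, 8 and 7 of them for the penis, 172 for the forelimb and 111 for the hindlimb. Its limit on log10 genes per log10 UMI alone would keep 19, 18 and 19 for the penis, 172 for the forelimb and 115 for the hindlimb. Thus nearly all of the high-globin barcodes described here lie outside those limits.

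Over all barcodes, the embryonic globins Hbb-y and Hba-x were abundant in the limb libraries and close to absent from the penis libraries, Hbb-bh1 was rare in both and lower in the penis, and of the adult globins Hbb-bt was also lower in the penis. Hbb-y gave 3, 3 and 1 UMIs in penis libraries 1 to 3, 100461 in the forelimb and 98284 in the hindlimb library. As a share of all UMIs it was 24052 times as high in the limb as in the penis libraries (95% exact interval 11673 to 59824, counting error only). Hba-x gave 2, 2 and 2 UMIs in the penis, 26682 for the forelimb and 27656 for the hindlimb, a ratio of 7672 (3525 to 20906). No penis library came near a limb library for either gene, and each penis value rests on 1 to 3 UMIs. Hbb-bh1, the rarest member in the limb libraries, had 3, 18 and 1 UMIs in the penis, 579 for the forelimb and 530 for the hindlimb, a ratio of 42.7 (28.1 to 68.4). In edgeR's quasi-likelihood test over 22429 genes, all of these genes were lower in the penis (adjusted p = 1.12e-09 for Hbb-y, 6.51e-10 for Hba-x and 1.44e-05 for Hbb-bh1). The log2 change of Hbb-bh1 was -5.49 (SE 0.42), and it was -7.24 without penis library 2, which held 18 of the 22 penis UMIs.

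The adult genes were abundant in every library. Hbb-bt stood at 4706, 3854 and 3729 CPM, here of all UMIs, in the penis, against 10506 (forelimb) and 11398 (hindlimb). Its penis and limb values did not overlap, and it was lower in the penis (log2 change -1.50, SE 0.13, adjusted p = 3.01e-05). Hbb-bs, the most abundant member in all 5 libraries, stood at 25618, 21337 and 20527 CPM in the penis against 31034 and 32733, and its change of -0.59 (SE 0.16, adjusted p = 0.01) was short of the limit of a log2 change of 1. Hba-a1 overlapped between the groups, at 9578, 8075 and 7480 CPM against 8984 and 10226 (-0.28, SE 0.14, adjusted p = 0.11). Hba-a2 was at 6860, 5790 and 5387 CPM in the penis against 7045 and 8025 in the limbs (-0.41, SE 0.14, adjusted p = 0.028), which was not a call. Thus 4 of the 7 members were called lower in the penis (adjusted p under 0.01 and a log2 change beyond 1) and none higher, beside 11.4% of all genes tested called lower and 13.3% called higher. In sums over a whole tissue, fewer red cells and less globin RNA per cell cannot be told apart.

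**Figure D1:**
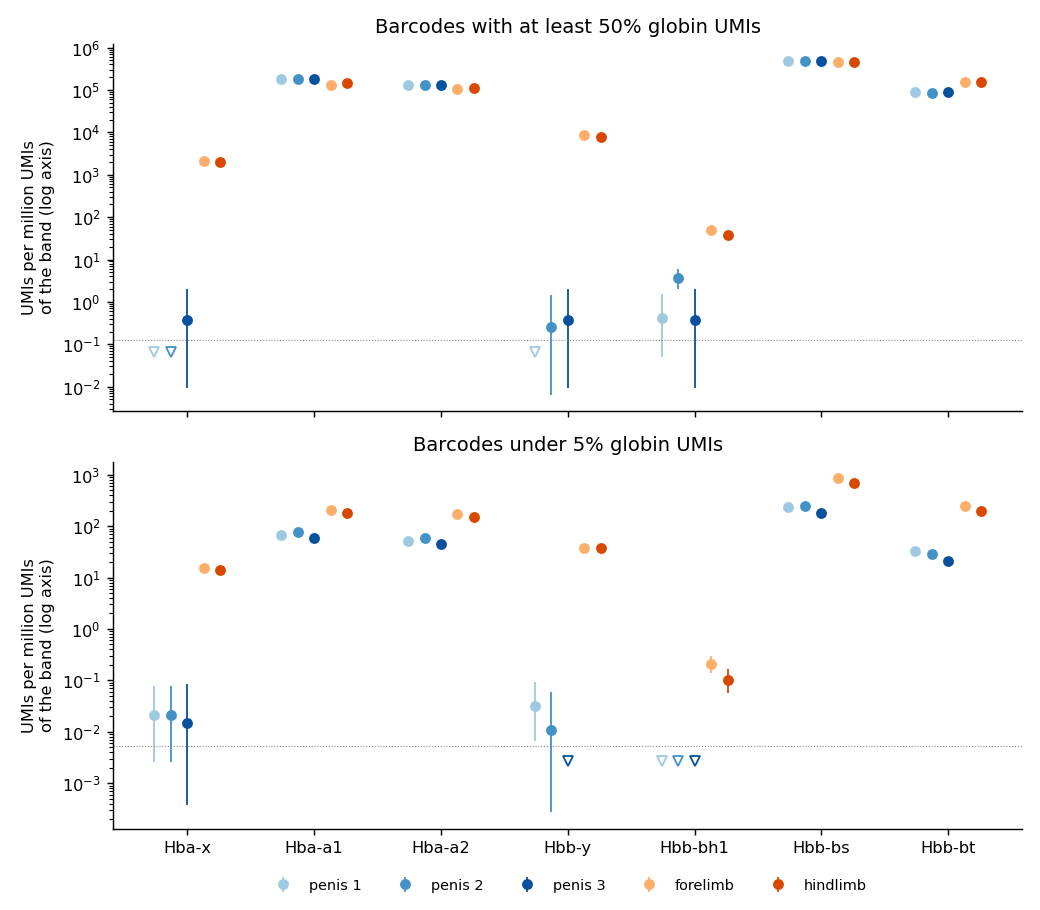
Level of each globin in CPM of all UMIs of the band (log axis) in each of the 5 libraries, in barcodes with at least 50% globin UMIs (top) and in barcodes under 5% (bottom); each point is 1 library with its 95% exact interval for counting error, and open triangles under the dotted line mark a count of 0. Hba-x, Hbb-y and Hbb-bh1 lie far lower in the 3 penis libraries than in the 2 limb libraries in both panels, whereas the 4 adult genes lie close together in the top panel and lower in the penis in the bottom one.

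Among the barcodes with at least 50% globin UMIs, whose total globin share is set by that limit, the embryonic genes again separated the tissues. Hbb-y was detected with 0, 1 and 1 UMIs in the penis and with 83703 and 80104 in the forelimb and hindlimb libraries, which is 0, 0.258 and 0.367 CPM against 8864 and 7726 CPM. The limb to penis ratio was 47109 (13041 to 388998; adjusted p = 1.11e-30). Hba-x was detected with 0, 0 and 1 UMIs against 20202 and 20604, a ratio of 23471 (4212 to 927066; adjusted p = 1.63e-29). Both embryonic genes were thus all but absent from 2333 high-globin penis barcodes. Hbb-bh1 was detected with 2, 14 and 1 UMIs in the penis and with 473 and 401 in the limbs (log2 change -4.44, SE 0.31, adjusted p = 1.89e-13). All 14 UMIs of penis library 2 were in 1 barcode, and the change was -6.27 without that library. These 3 of 7 members were called lower and none higher, beside 11.1% lower and 11% higher among the 6548 genes tested.

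The adult genes kept within the fold limit in these barcodes. Hba-a1 was at 185124, 182093 and 178382 CPM in the penis and 131864 and 142881 in the limbs (log2 change 0.82, SE 0.19, adjusted p = 5.64e-04). Hba-a2 was at 132655, 130648 and 128539 CPM against 103303 and 112076 (0.70, SE 0.18, adjusted p = 0.0021). Both adult alpha genes were higher in each penis library than in either limb library. Hbb-bs was at 490012, 476123 and 486065 CPM against 447393 and 448716 (0.53, SE 0.20, adjusted p = 0.034), and Hbb-bt at 90170, 86611 and 88534 against 152200 and 157556 (-0.39, SE 0.17, adjusted p = 0.069). These changes depend on the scaling, because globins make up most of the UMIs: scaling by library totals without TMM moved the median change of all genes from 0.03 to -0.40 and gave 0.40 for Hba-a1, 0.28 for Hba-a2, 0.11 for Hbb-bs and -0.81 for Hbb-bt, with every sign kept.

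Shares within the globin family do not depend on that scaling. Of the beta-like UMIs in high-globin barcodes, the embryonic genes made up 7.20e-05%, 6.86e-04% and 1.28e-04% in the penis, 1.46% for the forelimb and 1.26% for the hindlimb. Of the alpha-like UMIs, Hba-x made up 0, 0 and 1.20e-04% against 0.901% and 0.773%. The sizes of both differences depended on the barcodes taken and on their weight. The difference between the group means, -1.36 percentage points for the beta-like and -0.837 for the alpha-like UMIs, was -0.865 and -0.359 with at least 75% globin UMIs and -3.0 and -1.53 as the mean of the barcodes' own shares. Hence embryonic chains were a small part of the limb globin RNA and had almost no part in that of the penis. Alpha-like genes together took 35.4%, 35.7% and 34.8% of globin UMIs in the penis and 28.1% and 29.5% in the limbs, with means of 35.3% ± 0.458 (SD, n = 3) and 28.8% ± 1.02 (SD, n = 2). Hbb-bt took 15.5%, 15.4% and 15.4% of the adult beta UMIs against 25.4% and 26.0%. Hba-a1 took 58.3%, 58.2% and 58.1% of the adult alpha UMIs against 56.1% and 56.0%. The groups did not overlap in any of these shares, and the two-sided exact permutation test gave p = 0.1 for each (0.1 adjusted over 7 such comparisons), the smallest value that the 10 splits of 5 libraries allow.

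Among the high-globin limb barcodes, the Hbb-y and Hba-x RNA was concentrated in a small, separate class. Barcodes in which Hbb-y and Hbb-bh1 made up at least 10% of the beta-like UMIs are called embryonic-high here. There were 131 in the forelimb (3.27% of high-globin barcodes, 95% exact interval 2.74% to 3.86%) and 112 in the hindlimb library (3.14%, 2.59% to 3.76%). There were none in the penis libraries, which allows shares of up to 0.340%, 0.382% and 0.451%. Few barcodes lay near the limit. The highest embryonic share under it was 5.69% in the forelimb and 3.13% in the hindlimb library, and the lowest above it was 24.4% and 37.4%. Of the embryonic-high barcodes, 127 and 110 were at least 50% embryonic, and the median share was 95.1% in the forelimb and within 1 percentage point of it in the hindlimb library. Outside the class, 3206 of 3880 forelimb and 2947 of 3457 hindlimb barcodes had no embryonic beta-like UMI at all. The difference in the share of embryonic-high barcodes between penis and limb had an exact permutation p of 0.1, as above. It was -3.20 percentage points over all high-globin barcodes, -1.23 in those with at least 75% globin UMIs and -1.58 in those of 2000 to 4000 UMIs, an alternative chosen after the data were seen.

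**Figure D2:**
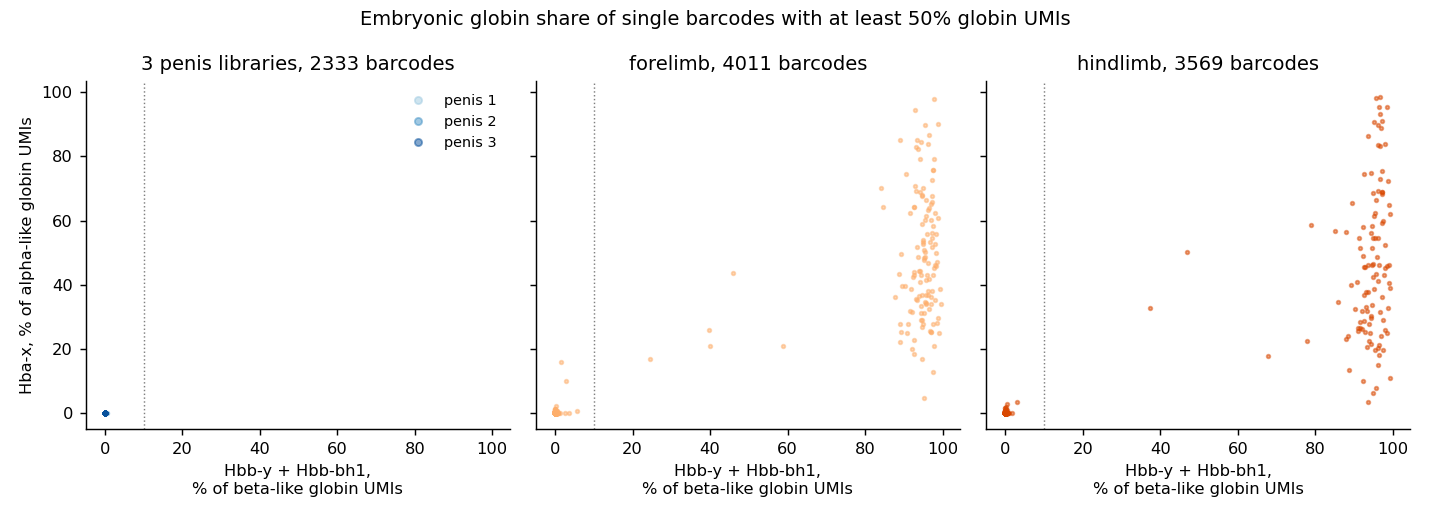
Each point is 1 barcode with at least 50% globin UMIs; the horizontal axis is Hbb-y plus Hbb-bh1 as a percent of beta-like globin UMIs, the vertical axis is Hba-x as a percent of alpha-like globin UMIs, with 1 panel for the 3 penis libraries and 1 for each limb library, and the dotted line is the 10% limit. The limb panels show a group at the lower left corner and a separate group at the right (126 forelimb and 109 hindlimb barcodes from 75% up) that spreads widely in Hba-x, and the penis panel shows only the corner group.

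The embryonic-high barcodes carried nearly all of the Hbb-y and Hba-x RNA of the high-globin limb barcodes. They held 98.9% and 99.2% of the Hbb-y UMIs of the high-globin barcodes in the forelimb and hindlimb libraries, and 1.73% and 1.50% of all globin UMIs of the same barcodes. Over all barcodes the part was smaller: 82801 of 100461 and 79481 of 98284 Hbb-y UMIs were in the class. For Hba-x it was 19867 of 26682 and 20363 of 27656, and for Hbb-bh1 225 of 579 and 306 of 530. Hba-x was not used in the 10% limit of the class, but it counts toward the 50% globin limit that every one of these barcodes passed. Of its UMIs in the high-globin barcodes, 98.3% and 98.8% were in the class, and the part of the 50% limit in this was not tested. Hba-x made up at least 10% of the alpha-like UMIs in 130 of 131 and 109 of 112 embryonic-high barcodes, and in 2 of 3880 and 0 of 3457 others. Alpha and beta embryonic genes were thus found together barcode by barcode. Hbb-bh1 behaved differently from Hbb-y: 47.6% and 76.3% of its UMIs were in the class, it was detected in 42 of 131 (32.1%) and 29 of 112 (25.9%) embryonic-high barcodes, and its median there was 0 UMIs beside 469 and 465 for Hbb-y and 132 and 164 for Hba-x. Its UMIs were concentrated in few barcodes, with up to 50 and 89 in a single embryonic-high barcode and up to 84 and 19 in a single other barcode. In the other high-globin limb barcodes, Hbb-y was detected in 16.6% and 14.2% (median depth 2249 and 2912 UMIs) and Hba-x in 5.31% and 4.08%. Free RNA in the droplets gives UMIs in cells that do not express a gene, and mesenchymal barcodes under 5% globin, which should lack globins, had Hbb-y in 15.2% and 12.2% (median depth 5595 and 6230 UMIs) and Hba-x in 4.06% and 3.11%. The mesenchymal barcodes were the deeper, and single forelimb barcodes outside the class held up to 96 UMIs of Hbb-y and 75 of Hba-x (59 and 39 in the hindlimb library). Single mesenchymal barcodes held more, up to 193 and 592 UMIs of Hbb-y and 130 and 202 of Hba-x in the forelimb and hindlimb libraries. What part of this detection is free RNA was not tested. Hbb-bh1 was detected outside the class in 33 of 3880 (0.851%) and 26 of 3457 (0.752%) high-globin barcodes, against 0.0948% and 0.0656% of the mesenchymal barcodes, where no barcode had more than 1 UMI.

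Within the class, adult chains were still present. Hbb-y made up 59.9% and 58.8% of the globin UMIs in the forelimb and hindlimb libraries, Hba-x 14.4% and 15.1%, Hba-a1 11.9% and 13.2%, and Hba-a2 6.36% and 7.32%. Hbb-bs made up 4.54% and 3.43%, Hbb-bt 2.73% and 1.94%, and Hbb-bh1 0.163% and 0.226%. The beta-like RNA was therefore almost wholly embryonic whereas more than 50% of the alpha-like RNA was adult: Hba-x made up 44.0% and 42.3% of it. Single barcodes varied widely in this alpha share, with 5th and 95th percentiles of 20.9% and 84.9% in the forelimb and 15.7% and 91.0% in the hindlimb library, and an SD of 20.2 and 23.2 percentage points where binomial counting alone would give 3.09 and 2.83. Of the adult alpha UMIs, Hba-a1 took 65.2% and 64.4% in the class and 56.0% and 56.0% in the other barcodes. The medians over barcodes with at least 100 adult alpha UMIs, 65.4% and 65.0% against 56.0% and 56.1%, were close to those sums.

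**Figure D3:**
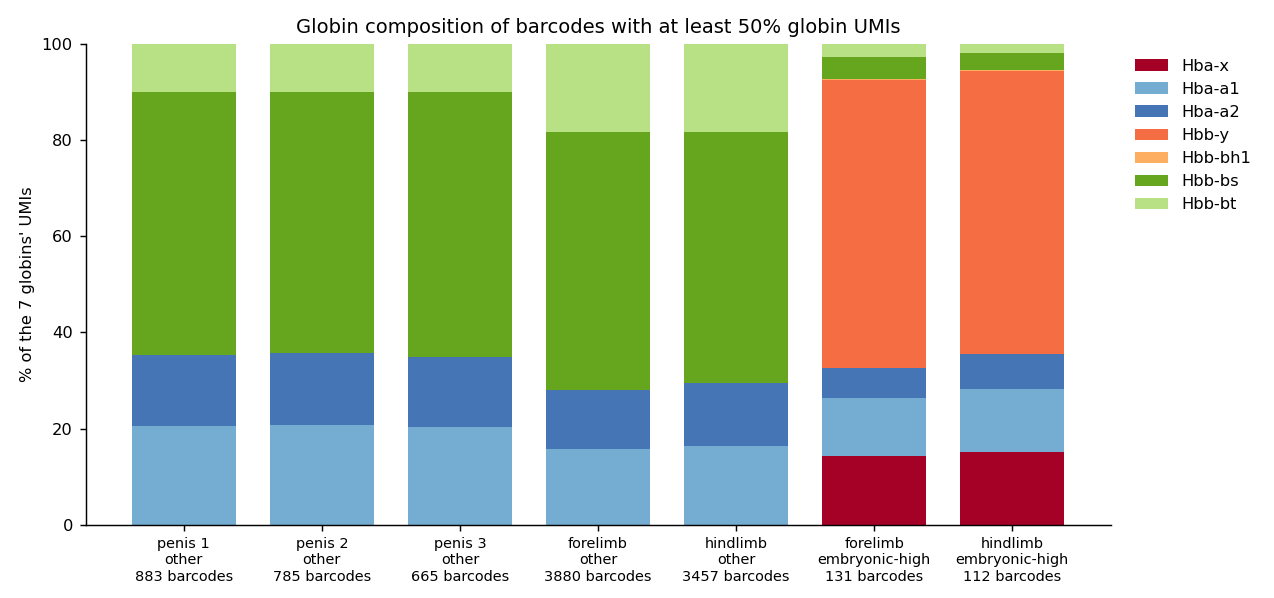
Percent of the 7 globins' UMIs taken by each gene (stacked) in barcodes with at least 50% globin UMIs, for the barcodes outside the embryonic-high class in each of the 5 libraries and, at the right, for the embryonic-high barcodes of the 2 limb libraries. Hbb-bs takes the largest part in the first 5 bars, and Hbb-y takes 59.9% and 58.8% in the embryonic-high bars.

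The embryonic-high barcodes differed from the other high-globin limb barcodes in other genes as well, and most plainly in low counts of late erythroid genes. They were shallower, with a median of 1102 and 1207 UMIs against 2249 and 2912, and had a lower globin share (72.6% and 75.6% of UMIs against 84.8% and 87.3%), values that move with every result of this comparison and whose part in them was not tested. At least 3 of the 9 red blood markers were detected in 3 of 131 (2.29%) and 9 of 112 (8.04%) embryonic-high barcodes, against 52.7% and 56.6% of the others. Among the others this share rose with depth, from 7.63% and 5.32% at 500 to 1000 UMIs. From 1000 to 2000 UMIs, the range that holds the median of the class in each limb library, it was 21.3% and 14.5%. Non-globin UMIs, among which the markers are counted, numbered 52268 in the 131 and 43653 in the 112 barcodes of the class. In the 3880 and 3457 others they numbered 1403761 and 1293975. How much of the gap goes with depth was not tested. Only 1 barcode of the class in each limb library had 3 or more markers of another cell type. A fit with edgeR on the sums of each class, with the library as a block and 1 residual degree of freedom, called 127 genes higher (1.9% of 6673 tested) and 162 lower (2.43%) in the class, 4.33% in all. In simulated sums of the same depth, 8 of 181 changed genes (4.42%) were recovered at a log2 change of 2 and 104 of 180 (57.8%) at 4. With at least 10 expected UMIs, 50% were recovered at 2 (8 of 16, with 6 false calls among all genes, each within a log2 change of 1.83). At 4 it was 57 of 57 (with 14 false calls, up to 9.45). Unchanged genes had a median of -0.52 and -0.50. A single call here is thus weak, a gene not called may still differ, and UMIs are given for each gene.

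Of the alpha-like members, Hba-x gave 19867 and 20363 UMIs in the class against 335 and 241 in the others (log2 change 10.64, SE 0.23, adjusted p = 1.93e-32). Hba-a2 gave 8790 and 9895 UMIs against 966721 and 1152087 (-2.32, SE 0.18, adjusted p = 1.35e-13). It fell relative to the median change of all genes, -0.36. Hba-a1 gave 16452 and 17869 UMIs against 1228771 and 1463492 (-1.79, SE 0.18, adjusted p = 5.48e-10). However, scaling by library totals without TMM moved the median of all genes to 0.84 and the change of Hba-a1 to -0.57, and the call was lost (adjusted p = 0.097). The 4 beta-like members define the class, so their values in this fit are not given as tests, although they are among the 127 higher and 162 lower genes.

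Of the late erythroid genes, 12 of 12 tested were lower and none higher, with a median log2 change of -3.07. Mkrn1, a ubiquitin ligase, gave 15 and 5 UMIs in the class against 10111 and 10371 (-5.50, SE 0.21, adjusted p = 2.78e-23). Bpgm, the enzyme that makes the haemoglobin ligand 2,3-bisphosphoglycerate, gave 28 and 24 against 7710 and 7661 (-3.70, SE 0.17, adjusted p = 4.46e-21). Isg20, an exonuclease, gave no UMI against 508 and 521, at least 12.2-fold lower as a share of non-globin UMIs and at least 6.51-fold lower as a share of all UMIs. With library totals 6 of the 12 remained called, and Tent5c, Bnip3l, Xpo7, Car2, Cat and Prdx2 lost their calls with their signs kept. The median of the list was then -1.87.

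Of the heme synthesis genes, 5 of 10 tested were lower and none higher (median -1.88). Slc25a37, the mitochondrial iron importer, gave 1 and 2 UMIs in the class against 3860 and 3927, a level 92.3 times as high in the others as a share of non-globin UMIs (31.6 to 448, counting error only) and 49.3 times as a share of all UMIs. Alas2 gave 12 and 9 UMIs against 7740 and 7980 (-5.04, SE 0.20, adjusted p = 5.20e-23). Fech, which inserts iron into heme, gave 5 and 12 UMIs against 1759 and 1808 (-3.21, SE 0.25). Urod gave 4 and 2 against 539 and 456 (-2.87, SE 0.41). With library totals 4 of the 5 calls remained, and the median of the list was -0.68 beside 0.84 for all genes. Of the red cell membrane genes, 4 of 14 were lower and none higher (median -1.24), among them the blood group gene Rhd (1 and 1 UMIs against 347 and 326). The cytoskeletal gene Epb41 gave 12 and 11 against 2007 and 1966 (-2.93, SE 0.22), and Slc4a1 gave 5 and 9 against 880 and 797 (-2.40, SE 0.30). All of those 4 calls remained with library totals, where the median of the list was -0.07.

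The erythroid regulators showed no common direction, with 1 of 12 higher and 1 lower. Their median was -0.49, and 0.71 with library totals, beside -0.36 and 0.84 for all genes. Tal1, an erythroid transcription factor, gave 12 and 9 UMIs against 24 and 23 (3.32, SE 0.57, adjusted p = 3.33e-05). Its partner Lmo2 gave no UMI against 222 and 212, at least 5.14-fold lower as a share of non-globin UMIs and 2.75-fold as a share of all UMIs. Klf1, an activator of the adult beta gene, gave 1 and 0 UMIs against 33 and 25 and could not be compared at this depth (ratio of others to class 2.06 in shares of non-globin UMIs, 0.356 to 82.8, and 1.10 in shares of all UMIs). The globin genes Hbq1a and Hbq1b were not called, with 10 and 5 UMIs against 218 and 175, and 11 and 2 against 130 and 120. Of the 3 nuclear RNAs, Malat1 gave 842 and 1112 UMIs against 6359 and 6415 (1.78, SE 0.11, adjusted p = 2.84e-16) and Neat1 gave 20 and 20 against 55 and 29 (3.43, SE 0.42). Meg3 gave 17 and 17 against 941 and 874 and was lower (-1.24, SE 0.22), a call that library totals removed.

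Outside these lists, the genes with the largest calls rested on few UMIs. P2rx7, an ATP-gated channel, gave 15 and 9 UMIs in the class against 2 and 1, a level 225 times as high as a share of non-globin UMIs (68.3 to 1167) and 421 times as a share of all UMIs. Gm33336 gave 6 and 9 against 1 and 2, a ratio of 141 (39.8 to 758) and of 263 on the same scales. Gm26885 (65 and 4 against 8 and 6, so unequal between the limbs), Tnfrsf22 (7 and 5 against 3 and 3) and Pdzk1ip1 (37 and 27 against 21 and 16) followed with log2 changes of 6.65, 5.39 and 5.27. The smallest, besides Isg20 and Lmo2, were Hist1h1c, a linker histone gene, March3 and Rab5c, which had no UMI in the class against 271 and 225, 196 and 133, and 135 and 146, at least 5.88-fold, 3.90-fold and 3.33-fold lower as a share of non-globin UMIs and 3.14-fold, 2.08-fold and 1.78-fold as a share of all UMIs.

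The 2 adult beta genes were not in a fixed ratio in single high-globin barcodes. The share of Hbb-bt in the adult beta UMIs rose with the depth of the barcode in all 5 libraries. From 500 to 1000 UMIs it was 3.41%, 3.06% and 3.97% in the penis, 15.7% for the forelimb and 12.8% for the hindlimb. From 2000 to 4000 UMIs it was 6.90%, 7.55% and 10.3% in the penis and 26.3% and 25.2% in the limbs. From 4000 to 8000 it was 14.8%, 15.8% and 17.2% against 29.9% and 29.6%. At matched depth the penis values thus stayed below the limb values in every range. Penis barcodes of 8000 UMIs and more reached 19.0%, 19.0% and 19.5%. In the range of 2000 to 4000 UMIs the difference between the group means was -17.5 percentage points, against -10.2 over all depths. Penis high-globin barcodes were deeper (median 5499, 5047 and 4245 UMIs) than those of the forelimb (2199) and hindlimb (2857).

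Single barcodes spread far beyond counting error in this share. The SD over barcodes with at least 100 adult beta UMIs was 7.10, 6.93 and 6.91 percentage points in the penis and 7.45 and 7.75 in the limbs outside the embryonic-high class, where binomial counting alone would give 1.06 to 1.41. Barcodes with under 2% Hbb-bt were 12.9%, 13.2% and 12.9% of those in the penis and 0.180% and 0.174% in the limbs. They were shallow, with median depths of 1162, 1280 and 986 UMIs in the penis. The share of barcodes with 3 or more red blood markers moved along with depth too, from 6.10%, 5.17% and 1.45% of penis barcodes of 500 to 1000 UMIs to 100% of those of 8000 and more, and its part in the Hbb-bt share was not tested. Hba-a1 did not follow this course: its share of adult alpha UMIs stayed between 55.4% and 59.9% in all depth ranges of all 5 libraries. The alpha-like share of all globin UMIs fell with depth in the penis, from 49.9%, 46.7% and 41.6% at 500 to 1000 UMIs to 34.8%, 34.9% and 34.2% at 4000 to 8000, whereas in the limbs it was 25.9% and 28.7% in the shallow range and 29.2% and 30.3% in the deep one.

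**Figure D4:**
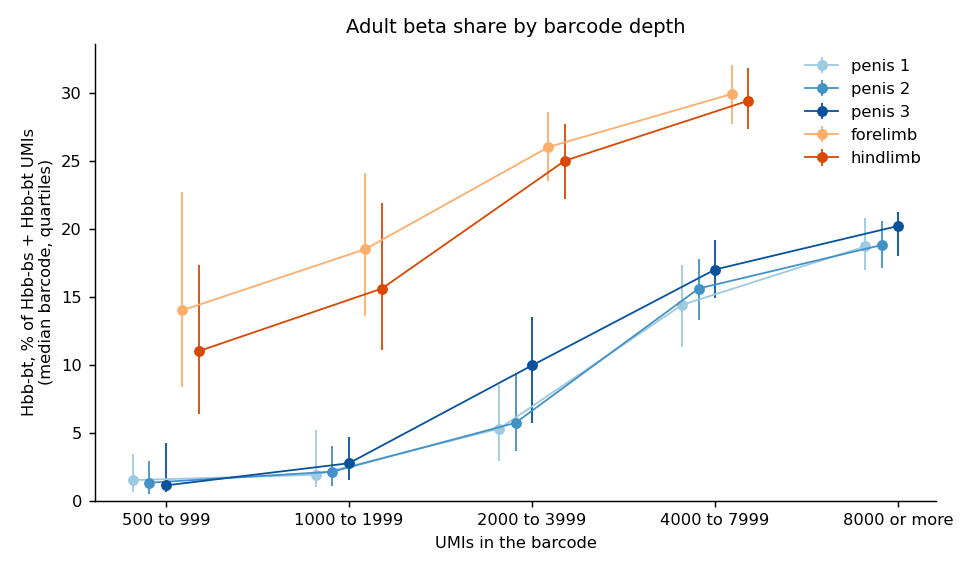
Hbb-bt as a percent of adult beta UMIs (Hbb-bs plus Hbb-bt) in barcodes with at least 50% globin UMIs outside the embryonic-high class, by range of UMIs per barcode; points are the median barcode of 1 library and bars its quartiles. The medians rise from 1.13% to 1.52% at 500 to 1000 UMIs to 14.4% to 17.0% at 4000 to 8000 in the penis, and reach 29.4% and 29.9% at 4000 to 8000 in the limbs, above the penis in each range shown for both.

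Other genes of red cells also differed between the high-globin barcodes of penis and limb. Of 12 late erythroid genes tested, 5 were higher in the penis and none lower (median log2 change 0.90, against 0.03 for all genes, of which 11% were higher). Isg20 stood at 3136, 2523 and 2922 CPM of non-globin UMIs in the penis and at 349 and 389 in the limbs (3.07, SE 0.13, adjusted p = 9.51e-19). Tent5c, a poly(A) polymerase, stood at 4988, 3882 and 5105 against 1266 and 1430 (1.91, SE 0.13, adjusted p = 6.86e-14). Neither gene overlapped between the groups. Ube2l6, a ubiquitin-conjugating enzyme, rose by 1.45 (SE 0.12) and Ube2o, which marks proteins for removal in maturing red cells, by 1.18 (SE 0.13). With library totals 3 of the 5 calls remained, and Ube2o (0.76) and Bnip3l (0.61) did not reach the limit. In that setting 1 gene of the list was called lower and the median was 0.47. All 6548 genes then had a median of -0.40, with 372 higher and 1526 lower, so the list stayed above that median.

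Of the 10 heme synthesis genes, 1 was higher and 2 were lower (median -0.10), beside 11% and 11.1% of all genes tested. Alas2 stood at 16625, 12375 and 15319 CPM of non-globin UMIs in the penis and at 5324 and 5973 in the limbs (1.51, SE 0.13, adjusted p = 2.59e-11). Alad, the second enzyme of the pathway, was lower in the penis, at 24.6, 29.0 and 46.5 against 151 and 139 (-2.06, SE 0.23, adjusted p = 7.54e-09), as was Tmem14c, a porphyrin transporter (-1.40, SE 0.23). With library totals 1 was higher and 3 were lower, beside 372 higher and 1526 lower of all 6548 genes in that setting. None of the 12 regulators tested passed, by edgeR and with a median of -0.08, and with library totals 2 were lower. Klf1 had 6.14, 6.20 and 9.30 CPM of non-globin UMIs against 23.4 and 18.7 (-1.46, SE 0.49, adjusted p = 0.016). Of 13 membrane genes, Epb41 (1.33, SE 0.12) and the transferrin receptor Tfrc (1.02, SE 0.23) were higher and Rhd lower (-1.47, SE 0.18), with a median of 0.30. With library totals the calls of Epb41 (0.92) and Tfrc (0.59) were lost. The list then had none higher and 2 lower with a median of -0.15, against -0.40 for all genes. Of the other globins, Hbq1b (1.47, SE 0.17) and Cygb, a globin of fibroblasts (2.25, SE 0.51), were higher and Hbq1a was not called (0.71, SE 0.16). Cygb rested on 6, 19 and 8 UMIs against 9 and 7, and it was also higher in the barcodes under 5% globin (2.77, SE 0.13). None of the 3 nuclear RNAs was called, and with library totals 1 was lower. Barcodes with 3 or more markers of another cell type were 2.83%, 2.55% and 2.56% of the high-globin barcodes in the penis and 1.12% and 1.09% in the limbs, and their part in these values was not tested.

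Over all barcodes, where the median change of all genes was 0.01, none of the 12 heme synthesis genes passed (median 0.03, by edgeR). Beside the 13.3% of all genes called higher and 11.4% called lower, 2 of 14 late erythroid genes were higher, Trim58 (2.70, SE 0.25) and Isg20 (1.77, SE 0.11), and of 14 membrane genes 1 was higher and 4 lower. Of 15 regulators Tal1 was higher (1.15, SE 0.07), and Gata1 (-3.76, SE 0.24), the main erythroid GATA factor, and Myb (-2.80, SE 0.15), a factor of progenitor cells, were lower in the penis. Of 5 other globins Cygb was higher (2.77, SE 0.13). Malat1 was higher and Meg3 lower among the nuclear RNAs. Most penis UMIs of Trim58 lay in barcodes under 5% globin (43, 34 and 28 of 49, 48 and 33). So did those of Tal1 (980, 932 and 693 of 992, 947 and 701). Most limb UMIs of Gata1 (187 and 175 of 205 and 190) and Myb (1008 and 1150 of 1025 and 1182) lay there too. The changes there were 5.12, 1.24, -4.10 and -2.79 in this order, so these calls are not of red cells alone. Isg20 had most of its penis UMIs, 1533, 1220 and 942, in high-globin barcodes.

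Outside the high-globin barcodes, globin UMIs were found at a low level in barcodes of every cell type that could be gated. Such a level counts free RNA in the droplets as well as any RNA of the cell, and their parts were not tested. In the barcodes under 5% globin, the 7 globins summed to 388, 414 and 308 CPM in the penis, 1529 for the forelimb and 1270 for the hindlimb, 3.71 times as high in the limbs. Hbb-bs was at 235, 249 and 183 CPM against 851 and 694 (log2 change -1.85, SE 0.15, adjusted p = 2.19e-05). Hbb-bt was at 32.3, 29.0 and 21.3 against 243 and 193 (-3.03, SE 0.18, adjusted p = 4.32e-06). Both were lower in each penis library than in either limb library. Hba-a1, at 68.1, 75.7 and 59.0 against 208 and 179 CPM, changed by -1.57 (SE 0.12) and Hba-a2, at 52.1, 60.1 and 45.0 against 174 and 154, by -1.69 (SE 0.13). Hbb-y was detected with 3, 1 and 0 UMIs against 5447 and 5419, a ratio of 2386 (932 to 8758), and Hba-x with 2, 2 and 1 against 2163 and 2088, a ratio of 747 (320 to 2301). Hbb-bh1 had no UMI in the penis and 29 and 15 in the limbs, at least 12.9-fold higher there, and was too low to be tested. Thus 6 of 6 members tested were lower in the penis, beside 11.4% of the 22393 genes tested. The sizes of these changes depended on the limit on the globin share, which was set on the globins themselves. With a limit of 10% the change was -2.41 for Hbb-bt and -1.04 for Hba-a1, and with a limit of 1% it was -8.52 for Hba-x, against -9.51 at 5%. The red blood markers did not move the same way in these barcodes, and summed to 53.1, 53.4 and 56.5 CPM of non-globin UMIs in the penis and to 33.3 in each limb library.

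This low-level globin RNA had the embryonic genes in the limbs too. They made up 0.0119%, 0.00388% and 0% of the beta-like UMIs under 5% globin in the penis, 3.40% for the forelimb and 4.00% for the hindlimb (exact permutation p = 0.1). In each limb library that was above the share in the high-globin barcodes, 1.46% and 1.26%. Hba-x made up 3.83% and 4.09% of the alpha-like UMIs in the limbs, and Hbb-bt 22.2% and 21.7% of the adult beta UMIs. In the penis Hbb-bt made up 12.1%, 10.4% and 10.4%.

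For the levels by cell type, barcodes were gated by markers, with at least 3 genes of 1 type and fewer than 3 of every other. Mesenchymal barcodes held 249, 372 and 249 CPM of globin in the penis (290 ± 71.1, SD, n = 3), 1356 for the forelimb and 1159 for the hindlimb. Keratinocytes held 281 ± 68.4 CPM in the penis and 1980 and 2192 in the limbs, and endothelial cells 223 ± 34.6 and 2459 and 1326. The limb values exceeded all penis values of the same type. Macrophages, which take up old red cells, held 342, 426 and 863 CPM in the penis, with penis library 3 apart from the others, and 1596 and 1216 in the limbs. Glial cells held 257 ± 13.2 and 1333 and 1043. Chondrocytes held 592 in penis library 2, the only penis library with 20 gated barcodes or more, and 2018 and 1442 in the limbs, and muscle cells of the limbs 1103 and 864. Counted per barcode, this was 2.01 to 5.12 globin UMIs in the penis and 6.76 to 14.4 in the limbs, and how much of it was free RNA was not tested. Cell types were not compared by a test.

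**Figure D5:**
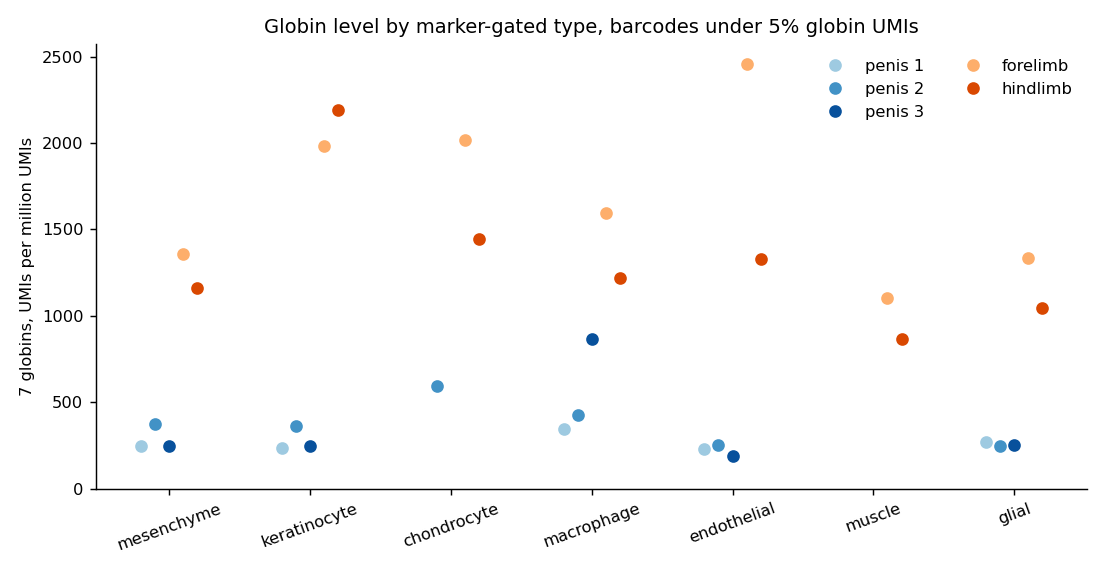
Level of the 7 globins in CPM in barcodes under 5% globin that were gated to a cell type by marker genes; each point is 1 library with at least 20 such barcodes. Every limb point lies above every penis point of the same type, and macrophages of penis library 3 stand apart from those of the other penis libraries at 863.

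The embryonic share of the beta-like UMIs also ran through all limb types. In the forelimb library it was 3.66% in mesenchyme, 6.66% in keratinocytes, 3.26% in chondrocytes, 2.92% in macrophages, 6.11% in endothelial cells, 2.82% in muscle and 2.92% in glia. In the hindlimb library it was 5.10%, 2.58%, 2.30%, 2.47%, 2.39%, 4.39% and 2.90% in the same order. No type was the highest in both limbs. In the penis, the share was 0 in all types with a value except endothelial cells of library 1 (0.201%).

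Across 35 sums, 1 for each cell type and library with at least 20 barcodes, the adult and the embryonic members followed the summed globins differently. Hba-a1, Hba-a2, Hbb-bs and Hbb-bt followed the summed globin level with Pearson r of 0.99 to 1.00 on log2(CPM + 1), whereas Hbb-bh1 (0.61), Hba-x (0.42) and Hbb-y (0.40) did so less closely. Among 12010 genes, those most like the summed globins included Alas2 (0.95), Tspo2 (0.92), Slc25a37 (0.92), Slc4a1 (0.91), Trim10 (0.89), Car2 (0.89), Epb41 (0.88), Syt14 (0.87) and Mkrn1 (0.86). The member most like Hbb-y was Hba-x (0.99), while Hbb-bh1 reached 0.60. The other genes most like Hbb-y were Cma1 (0.94), Cpa3 (0.94), Tpsb2 (0.93), Hdc (0.83) and Acta1 (0.77). Of these the first 4 are genes of mast cells and the last a muscle actin. Hbb-y was at 0.428 CPM or less in every penis sum and at 22.2 or more in every limb sum, so its likeness also follows that split. These sums share libraries, and the values are descriptions over 5 libraries. Of the sums, 5 were red blood sums gated on markers that include Alas2, Slc4a1 and other red cell genes, and the adult members make up most of the summed globins, so both likenesses are in part built into the measure. The gate asks for 3 red blood markers, which only 3 of 131 forelimb and 9 of 112 hindlimb embryonic-high barcodes had. Nearly all of that class is thus outside the red blood sums, and the effect on the r of Hbb-y and Hba-x was not tested.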

How the data were processed

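The authors deposited, for each of the 5 libraries, a matrix of UMI counts, not normalized, with genes in rows and barcodes in columns. The submitters' processing notes name Cell Ranger 7.0.0 and mm10. All deposited barcodes were used, whereas the study's limits were 500 to 6000 genes and 5% mitochondrial UMIs for the penis, 100 to 9000 (forelimb) or 100 to 9500 (hindlimb) genes and 10% for the limbs, with log10 genes per log10 UMI of at least 0.8. The methods give the gene limits as reads per cell, taken here as genes detected per cell, and these limits were an alternative. No doublet caller was run, but barcodes with 3 or more markers of another type were counted. The members, lists and tests were chosen with earlier results of these data known.

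Counts were summed per library over all barcodes, those with at least 50% globin UMIs and those under 5%, since cells are not replicates. Sums were tested with edgeR 4.0.16 (R 4.3.3, limma 3.58.1; TMM, filterByExpr, quasi-likelihood test, Benjamini-Hochberg over all genes tested), as 3 penis against 2 limb libraries. Genes were called at an adjusted p under 0.01 and an absolute log2 fold change above 1. The SE given with a log2 change is not reported by edgeR. It was taken as the absolute change divided by the square root of the F value of its test. DESeq2 1.42.0 was an alternative. Counts were also simulated from 1 mean profile for all sums of a comparison, with a dispersion of 0.02 for every gene. They thus lack the differences in globin composition between the real sums. In these simulated data with a log2 change of 2, the edgeR test recovered 98.4% of changed genes over all barcodes, 100% in the upper and 97.4% in the lower band. In the embryonic-high comparison it recovered 4.42%. Shares were compared by a two-sided exact permutation test over libraries (10 assignments, smallest p 0.1). Intervals are exact at 95%, the limit for a count of 0 is 3 counts, and both cover counting error only. Named genes are the 7 members, the 4 largest absolute changes of each list (heme synthesis, erythroid regulators, red cell membrane, late erythroid, other globins, nuclear RNA), the 5 largest and 5 smallest changes in the embryonic-high comparison, and the 10 genes most like the summed globins and 5 most like Hbb-y by Pearson r of log2(CPM + 1), over sums of at least 20 barcodes and genes with mean CPM of at least 5. Others were named after their values were seen. Ahsp was not analysed here, and some named genes are not reported here. The RefSeq promoter table held 6 of the 7 members, without Hbb-bh1. Of the feature IDs, 32158 of 32285 (99.6%) were found in GENCODE M21. Counts were read in Python 3.11.15 with scipy 1.17.1 and pandas 2.3.3.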

Additional observations from a re-analysis of the deposited data

How the results depend on the processing

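Over 435 alternative settings, 417 were counted as the same, 16 moved a value or count and 2 removed a call, that of Hba-a1 in the embryonic-high comparison (-0.57, adjusted p = 0.097, with library totals, and -1.72, adjusted p = 0.021, with a 2% limit on the embryonic share). For a member, the same means that call and direction were kept, and for a share direction alone. A member that was not tested in a setting is not counted there. This holds for Hbb-bh1 in high-globin barcodes under the study's limits on barcodes, where its call could not be checked. For a count of genes it means a change within a set fold, such as 485 higher by DESeq2 for 722 in high-globin barcodes. All 67 settings of the globin shares kept direction, but they could not gain or lose a call, since the smallest p that the design allows is 0.1. All 180 settings that left out a library kept direction, and none of the edgeR calls among them was lost. None was reversed. In barcodes with at least 50% globin UMIs, where 722 genes were higher and 725 lower in the penis, DESeq2 called 426 lower, library totals without TMM called 372 higher and 1526 lower, no filter on low counts called 1168 lower, and the study's limits on barcodes, which left 612 genes to test, 24 higher and 12 lower. In the embryonic-high comparison, where 127 genes were higher and 162 lower, DESeq2 called 64 and 50, library totals 491 and 62, and no filter 73 and 245. Of the genes called there, 11 changed sign with library totals, none of them on a list. With no limit on the globin share, the mean penis level was 632 CPM in mesenchyme, 1381 in keratinocytes, 1643 in macrophages and 366 in endothelial cells, since barcodes rich in globin then enter. The embryonic beta difference of -1.36 percentage points was -0.865 with at least 75% globin UMIs, -1.15 with 2000 to 4000 UMIs and -3.0 as the mean of the barcodes' own shares, and the embryonic alpha difference of -0.837 was -0.359, -0.495 and -1.53. No paired analysis was possible because the penis and limb libraries share no replicate numbers of common origin. Depth limits the penis values of Hba-x, Hbb-y and Hbb-bh1, which rest on 22 UMIs or fewer per gene, and the calls within the embryonic-high class.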

Other observations

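The barcodes between 5% and 50% globin UMIs, which enter the sums over all barcodes but neither band, numbered 131, 228 and 105 in penis libraries 1 to 3, 617 for the forelimb and 651 for the hindlimb. Of these, 62.6%, 59.2% and 61.9% in the penis and 76.2% and 77.3% in the limbs had 3 or more markers of a type other than red blood, beside 1.09% to 2.83% of the barcodes with at least 50% globin. Embryonic-high barcodes were found among them only in the limbs, 46 of 617 for the forelimb and 43 of 651 for the hindlimb, and 0 in the penis.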
